A study of Homo sapiens with 23 samples.

Results

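The TRAIL receptor gene cluster lies on the short arm of human chromosome 8 and holds TNFRSF10B, TNFRSF10C, TNFRSF10D and TNFRSF10A, in this order from lower to higher coordinates. Its members here are the ChIP-seq peaks that overlap the stretch from 22.85 to 23.11 Mb of chromosome 8 in the hg19 build, a window of 260 kb. They number 20 of the 52708 peaks in 5 lists. The window was selected on the peaks themselves, with their positions, tags and fold enrichments in these lists known, so these values are a description and carry no test.

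The cells were SH-SY5Y, a human neuroblastoma line, first exposed for 4 days to retinoic acid at 10 µM and then for 3 days to the neurotrophin BDNF at 50 ng/mL. Days refer to the BDNF step, and cells of day 0 had not received it. The 5 lists come from LSD1 in cells with a control shRNA at day 0, LSD1 in cells with an shRNA against LSD1+8a at day 0, and LSD1, LSD1+8a and SVIL in cells with a control shRNA at day 3. LSD1 (KDM1A) is a histone lysine demethylase, LSD1+8a is its neuronal splice isoform, detected with an antibody made by the authors, and SVIL (supervillin) binds actin and is listed in the series design as a cofactor of LSD1+8a. Every cell population carried an shRNA vector, the control cells included, and each list is 1 library, so no difference between conditions has a replicate check. The 5 lists are those of 5 of the 14 ChIP samples in a series of 23 samples with 9 inputs. The other ChIP samples, among them those for dimethylated lysine 9 of histone H3, were not analysed here.

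TRAIL (TNFSF10) is a ligand of the tumour necrosis factor family that can start apoptosis. TNFRSF10A (DR4) and TNFRSF10B (DR5) are its death receptors, which carry an intracellular death domain and recruit FADD and the initiator caspase CASP8. TNFRSF10C (DcR1) and TNFRSF10D (DcR2) bind TRAIL as decoys, the former through a lipid-anchored protein without a death domain and the latter through a protein with a truncated one. TNFRSF10B is also a known p53 target, and loss of CASP8 expression is a known feature of many neuroblastomas.

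All 4 genes were found by symbol in RefSeq's gene table for GRCh38. In that table TNFRSF10B-AS1 and LOC254896 stand between TNFRSF10B and TNFRSF10C, TNFRSF10C, TNFRSF10D and TNFRSF10A follow each other directly, and RPL23AP55, TNFRSF10A-DT and CHMP7 come after TNFRSF10A. RHOBTB2, RHOBTB2-AS1 and RN7SL303P precede TNFRSF10B. No annotation of hg19 was used here, so the peaks are given by position and none is assigned to a gene, an exon or a promoter. For the same reason the other genes of the TRAIL pathway could not be placed on the peak lists.

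Over the whole genome the lists hold 16882 and 20748 LSD1 peaks of control cells at day 0 and day 3, 10248 LSD1 peaks of knockdown cells, 3378 LSD1+8a peaks and 1452 SVIL peaks. Read depth is unknown, since the sources used here do not give it. Tags, the whole number of reads the authors assigned to a peak, are therefore not normalized, and the absence of a peak from a list says only that it did not pass that list's threshold. The lowest score of a listed peak was 50.0 in the 3 LSD1 lists and the LSD1+8a list and 71.7 in the SVIL list. Titles of the day 3 libraries used here lack the library number that the day 0 titles carry, and the input behind each list is not known. The day therefore cannot be told apart from such differences.

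The window held 5 LSD1 peaks in control cells at day 0, 2 in knockdown cells at day 0, 4 LSD1 peaks in control cells at day 3, 2 LSD1+8a peaks and 7 SVIL peaks. Merging all peaks that overlap by at least 1 bp gave 6 regions out of 32188 in the series. Of these 6, 4 held peaks of more than 1 list and 2 held a peak of a single list. This split is not given here for all 32188 regions, and nothing is read from it. The 6 regions fell into an inner and an outer group. The inner group was a pair of neighbouring regions found in all 4 lists of control cells used here and missing from the knockdown list. The outer group was 4 regions with 17 to 49 tags in each list that held them, 3 of them at day 0 only.

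**Figure D1:**
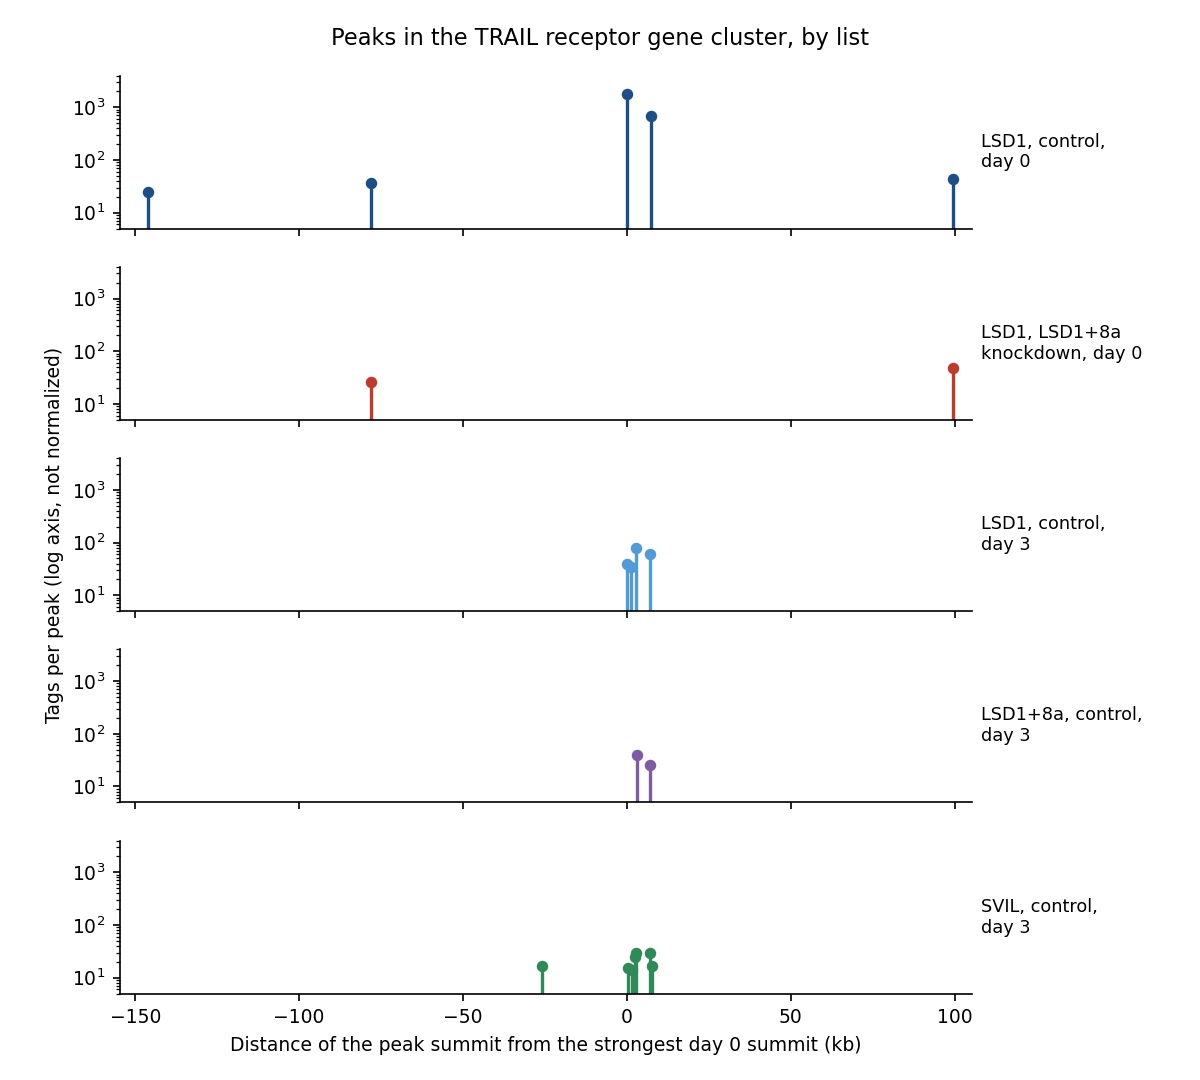
Tags per peak (log axis) for the 20 peaks of the cluster, with 1 panel per list and the horizontal axis giving each summit's distance in kb from the summit of the strongest day 0 peak. The pair of LSD1 peaks with 1802 and 692 tags at day 0 in control cells has no counterpart in the knockdown panel, which shows only the peaks with 26 and 49 tags on either side.

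The inner pair consisted of a larger region at 23004357 to 23008135 (3779 bp) and a smaller region at 23011175 to 23012869 (1695 bp), separated by 3039 bp without a peak. In the larger region LSD1 at day 0 in control cells had a single peak, 23004357 to 23007916, of 3560 bp with 1802 tags and a fold enrichment of 218. LSD1 at day 3 had 3 peaks there with 40, 34 and 80 tags. LSD1+8a had 1 peak with 40 tags, and SVIL had 4 peaks with 15, 14, 25 and 29 tags. The day 0 library was thus far above the other 3 in tags, and the knockdown library had no listed peak.

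The smaller region showed the same order. LSD1 at day 0 in control cells had a peak over the whole region with 692 tags and a fold enrichment of 137. LSD1 at day 3 had 1 peak, 23011353 to 23012596, with 61 tags and a fold of 31.3. LSD1+8a had 1 peak, 23011552 to 23012428, with 26 tags and a fold of 14.1. SVIL had 2 peaks, with 29 and 17 tags and folds of 17.6 and 21.9. Again no peak was listed in knockdown cells.

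Per length, LSD1 at day 0 in control cells had 506 tags per kb of peak in the larger region and 408 in the smaller. LSD1 at day 3 had 52.6 and 49.0 tags per kb, LSD1+8a 37.9 and 29.6, and SVIL 74.0 and 82.0. The medians over all peaks of these lists were 30.5, 46.0, 44.0 and 63.7 tags per kb. The day 0 values were thus far above their list's median, those of day 3 LSD1 and SVIL, summed per region, slightly above it, and those of LSD1+8a below it. Single peaks lay on either side, with the day 3 LSD1 peak from 23005564 at 44.0 and the SVIL peaks from 23004961 and 23006000 at 61.98 and 52.6 tags per kb, below their medians.

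The tags of the larger region relative to those of the smaller could be compared within each library, where depth does not enter as a scale factor. Depth can still affect how much of each region was called as a peak. The ratio was 2.60 (2.38 to 2.85, exact 95% binomial interval, counting error only) for LSD1 at day 0 and 2.52 (1.87 to 3.45) for LSD1 at day 3. It was 1.54 (0.916 to 2.63) for LSD1+8a and 1.80 (1.24 to 2.65) for SVIL. Peaks covered 3560 and 1695 bp, 2925 and 1244 bp, 1056 and 877 bp, and 1122 and 561 bp in these lists, and per kb the ratios were 1.24, 1.07, 1.28 and 0.902. Both LSD1 libraries of control cells thus split their tags between the regions in nearly the same proportion, although their totals differed widely. The intervals of LSD1+8a and SVIL also include 2.60, so this proportion does not set the LSD1 libraries apart.

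The peaks differed in where they lay inside the pair of regions. The day 0 LSD1 peak covered 94.2% of the larger region, the 3 day 3 LSD1 peaks 77.4%, the LSD1+8a peak 27.9% and the 4 SVIL peaks 29.7%. The day 0 summit, at 23004665, lay 25 bp from the summit of the first of the 3 day 3 peaks. The day 3 peak with most tags was the rightmost, 23006787 to 23008107, with a fold of 38.4 and a summit 2923 bp to the right of the day 0 summit. The LSD1+8a peak, 23007080 to 23008135, had a fold of 20.1 and overlapped only that rightmost day 3 LSD1 peak, with a summit 256 bp from it.

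SVIL peaks followed the day 3 LSD1 peaks piece by piece. The SVIL peak at 23004961 to 23005202 lay in the first day 3 LSD1 peak with a summit 454 bp away, and that at 23006000 to 23006265 in the second with a summit 190 bp away. The peaks at 23007098 to 23007442 and 23007450 to 23007718, which were 7 bp apart, both lay in the rightmost. The latter had the highest fold of SVIL in the cluster, 30.4, and a summit 79 bp from that of LSD1. In the smaller region the SVIL peak at 23011512 to 23011842 had its summit 19 bp from the LSD1+8a summit and 136 bp from the day 3 LSD1 summit. The second SVIL peak there, 23012109 to 23012338, had its summit 89 bp from the day 0 LSD1 summit. Chromatin was sheared to fragments longer than most of these distances, per the labels' protocols, which limits how finely summits can be placed.

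**Figure D2:**
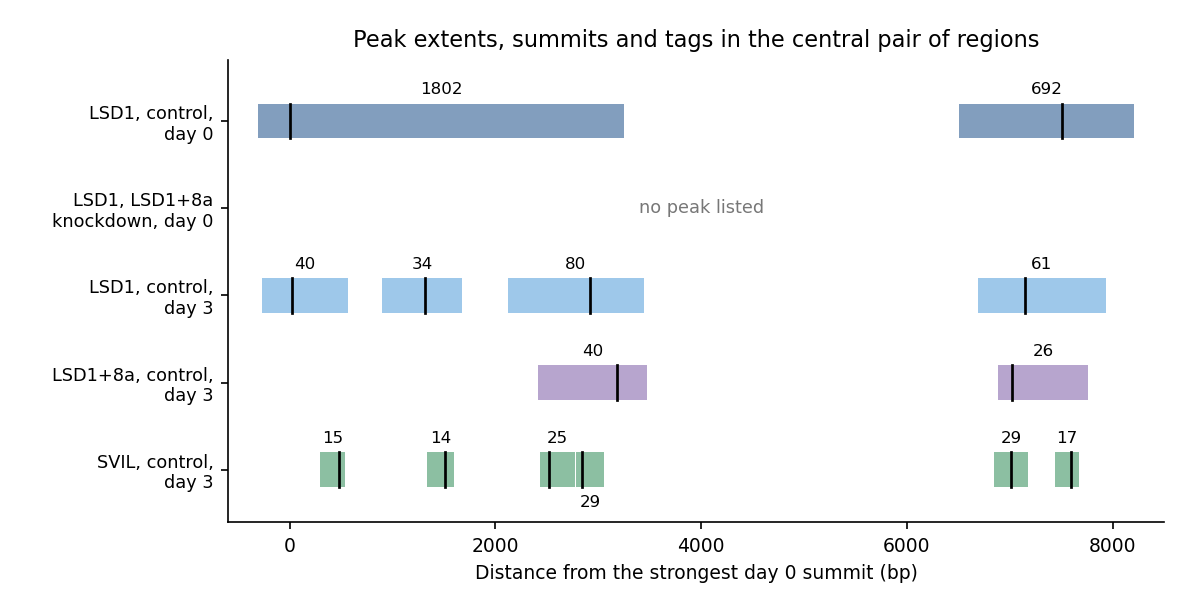
Extent of every peak in the inner pair of regions (bars), its summit (black line) and its tags (numbers), by list, against the distance in bp from the strongest day 0 summit. The day 0 LSD1 peak of control cells with 1802 tags overlaps 3 day 3 LSD1 peaks, the rightmost only in part, and 4 SVIL peaks. In the larger region LSD1+8a lies only at the right end, and the knockdown list has no peak.

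A single day 0 peak that overlaps several peaks of another list by at least 1 bp each was rare. Of the 16882 day 0 LSD1 peaks of control cells, 48 (0.284%) overlapped at least 2 day 3 LSD1 peaks. Only 1 overlapped at least 3, which was the peak of the larger region. At least 2 SVIL peaks were overlapped by 19 day 0 peaks (0.113%), among them both peaks of the pair. At least 4 were overlapped by 1 peak, again that of the larger region. The day 0 peak of the larger region was also among the longest of its list, in the upper 0.0296% by length, so that it offers more room for such overlaps than the median peak of 834.5 bp.

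Within their own list, the day 0 peaks of the pair stood at the top. Both had the score of 3100, the highest value in the list, shared by 3 peaks. The highest score was also 3100 in the LSD1 lists of control cells at day 3 and of knockdown cells. It may thus be a ceiling, and it does not order the peaks that share it. By fold enrichment the pair ranked 1 and 3 of 16882, and by tags 2 and 4. The peak with more tags, on chromosome 21 (9825340 to 9827704), had 2704 tags but a fold of only 8.47, and it was overlapped by a knockdown peak. By tags per kb the pair ranked 6 and 7.

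In the other lists the peaks of the same regions ranked from near the top to the lower end, depending on the peak and the measure. The day 3 LSD1 peaks of the larger region ranked 13512, 15740 and 4286 of 20748 by tags, and that of the smaller region 7412. By fold they ranked 8289, 5829, 883 and 1906. The LSD1+8a peaks ranked 716 and 1899 of 3378 by fold and 1522 and 2644 by tags. By fold, the 6 SVIL peaks of the pair ranked between 124 and 931 of 1452. Ranks in lists of different lengths show no change between libraries, and they place each peak only among the peaks of its own library.

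**Figure D3:**
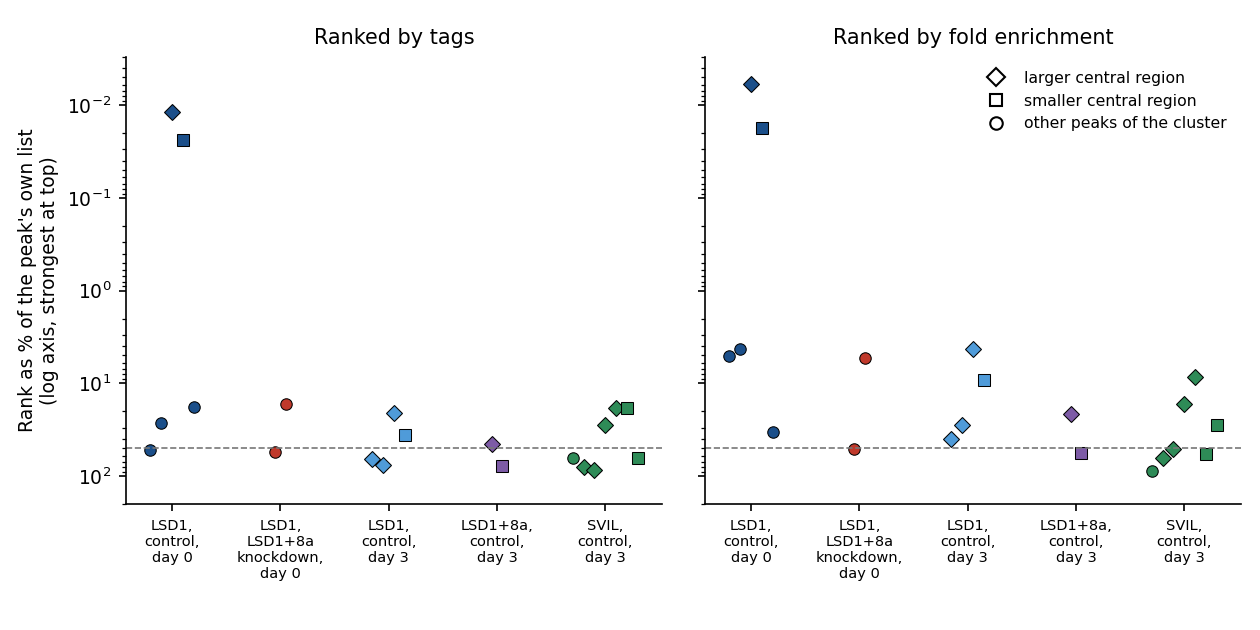
Rank of each of the 20 cluster peaks as a percentage of its own list, by tags (left) and by fold enrichment (right), on a log axis with the strongest at the top and a dashed line at 50%, the middle of each list. The day 0 LSD1 peaks of the inner pair in control cells lie at 0.0118% and 0.0237% by tags, while the peaks of the same regions in the other control lists lie between 18.6% and 84.9%.

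The comparison of control and knockdown cells at day 0 addressed LSD1 binding when the neuronal isoform is reduced. Of the 5 control peaks in the window, 2 were overlapped by a knockdown peak (40.0%, 5.27 to 85.3, exact Clopper-Pearson 95% interval), against 42.1% of all control peaks. The share in the cluster was thus close to that of the whole list. The missing peaks were the pair with 1802 and 692 tags and the peak with 25 tags at 22858053 to 22858799. The 2 found in knockdown cells had 37 and 44 tags in control cells.

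Most strong control peaks were found in the knockdown list. Of the 100 control peaks with the highest scores, 93 were overlapped by a knockdown peak and 7 were not, and the pair of the cluster belongs to the 7. Of the 100 with most tags, 88 were overlapped and 12 were not. Of the 100 with the highest fold, likewise, 88 were overlapped and 12 were not. Of these, none of the first 5 control peaks had a knockdown overlap, and 2 of these 5 are the pair. The others were a peak on chromosome 11 (94179981 to 94180747, 156 tags, fold 193), one on chromosome 3 (17443239 to 17444110, 147 tags, fold 136) and one on chromosome 11 (94178863 to 94179242, 88 tags, fold 132). A high fold without a knockdown overlap was therefore not particular to the pair. It was also found lower in the list, as at a peak in the region 29781796 to 29782731 of chromosome 10, with 57 tags and a fold of 68.7. With cuts chosen after the values were seen, only the pair combined a fold over 100 with more than 200 tags.

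**Figure D4:**
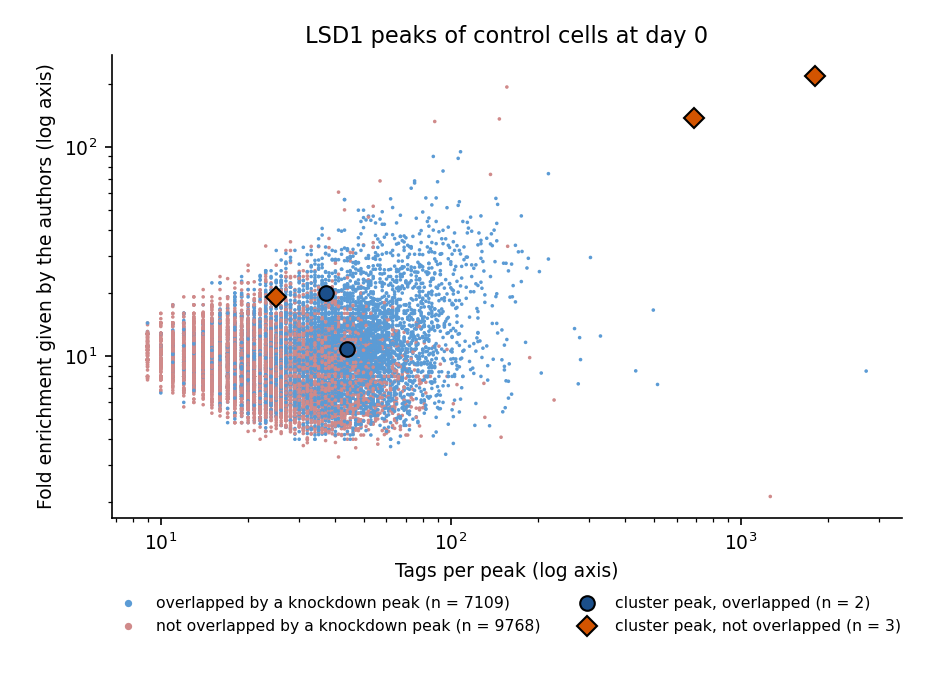
Tags and fold enrichment (both log axes) of all 16882 LSD1 peaks of control cells at day 0, coloured by overlap with a knockdown peak, with the 5 cluster peaks as large symbols. The pair with 1802 and 692 tags stands apart from all other peaks at the upper right, and the remaining 3 cluster peaks lie inside the cloud.

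The knockdown list did have peaks on both sides of the pair. The nearest to the left ended 77.5 kb before the larger region and the nearest to the right began 90.8 kb after the smaller region. The left one, at 22926044 to 22926903, had 26 tags and a fold of 9.03, and the control peak there, 22925757 to 22926983, had 37 tags and a fold of 19.99. Their summits were at 22926669 and 22926730. The right one, at 23103697 to 23104552, had 49 tags and a fold of 20.1, and the control peak there, 23103724 to 23104550, had 44 tags and a fold of 10.9, with summits at 23104064 and 23104052. Both knockdown peaks of the window were thus also control peaks (2 of 2, against 69.4% of all knockdown peaks).

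At these flanking regions the libraries held similar numbers of tags. Over all 7070 regions with LSD1 peaks in both day 0 lists, the median log2 ratio of knockdown to control tags was -0.10. Relative to this median, the left region stood at -0.41 (-1.19 to 0.35, exact 95% interval for counting error) and the right region at 0.25 (-0.37 to 0.87). Their peaks covered 860 and 1227 bp on the left and 856 and 827 bp on the right, in knockdown and control cells, at 30.2 and 30.2 tags per kb and 57.2 and 53.2 tags per kb. Both intervals include 0, and both values lay inside the span from -0.87 to 0.72 that holds the middle 90% of shared regions. A ratio could not be formed for the pair, since the knockdown list gives no tags there. The lowest value relative to the median among the shared regions was -2.20. The extent of the LSD1+8a knockdown cannot be read from these lists, and with 1 library each the knockdown cannot be told apart from other differences between these libraries.

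Across the BDNF treatment, 2 of the 5 day 0 control peaks in the window were overlapped by a day 3 LSD1 peak (40.0%, 5.27 to 85.3), against 50.1% of the whole day 0 list. They were the pair. Conversely, all 4 day 3 peaks in the window overlapped a day 0 control peak (39.8 to 100%), against 40.1% of all day 3 peaks, but 3 of these 4 lay in the same day 0 peak and are not independent. None of the 4 overlapped a knockdown peak (0 to 60.2%), against 22.2% of all day 3 peaks, and neither knockdown peak overlapped a day 3 LSD1 peak, against 45.5% of that list. The 3 outer day 0 regions thus had no listed LSD1 peak at day 3.

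LSD1 tags of the pair were lower at day 3 than at day 0, while those of most shared regions were higher. Over the 8277 regions with LSD1 peaks of control cells on both days, the median log2 ratio of day 3 to day 0 tags was 1.15. The larger region went from 1802 tags at day 0 to 154 at day 3, a log2 ratio of -3.55, or -4.70 relative to that median (-4.94 to -4.46, counting error only). The smaller region went from 692 to 61 tags, a log2 ratio of -3.50, or -4.65 relative to the median (-5.05 to -4.27). Per kb of peak, the relative values were -3.97 and -3.77. Of the 8277 regions, 90% lay between -1.35 and 1.23, and these 2 were the lowest. The lowest value outside the cluster was -2.84, at a region with 139 tags at day 0 and 43 at day 3. No test of this difference is possible with 1 library per day, and the height of the day 0 peaks is what brought these regions to notice. Regions of some other day 0 peaks with a high fold and no knockdown overlap also lay below the median ratio, though by less than the pair.

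**Figure D5:**
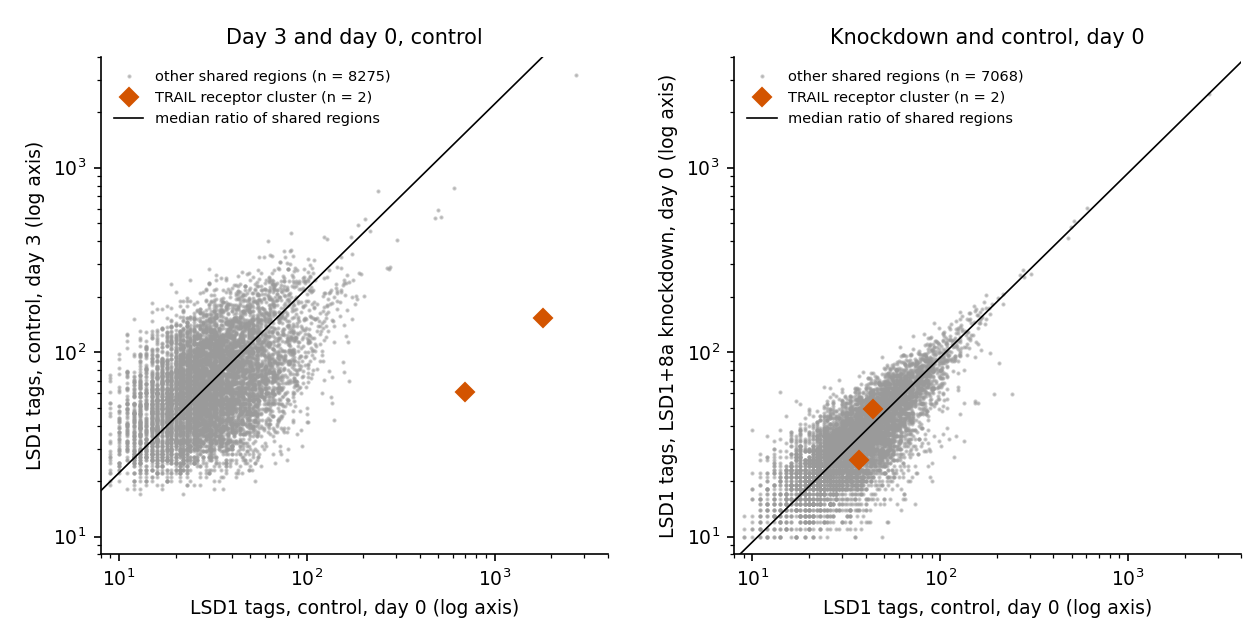
LSD1 tags of shared regions (log axes) in control cells at day 0 against control cells at day 3 (left, 8277 regions) and against knockdown cells at day 0 (right, 7070 regions), with the cluster's regions as diamonds and a line at the median ratio. The pair with 1802 and 692 tags lies far below the line on the left and is missing on the right, where the cluster is shown by its 2 flanking regions close to the line.

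At day 3, LSD1, LSD1+8a and SVIL met at the pair of regions. Both LSD1+8a peaks of the window overlapped a day 3 LSD1 peak (2 of 2, against 59.6% of all LSD1+8a peaks) and a day 0 control peak (against 60.9%), and neither overlapped a knockdown peak (against 52.4%). Of the 4 day 3 LSD1 peaks, 2 were overlapped by LSD1+8a (50.0%, 6.76 to 93.2, against 9.69% of the list) and 4 by SVIL (against 3.97%). Of the 5 day 0 control peaks, the pair was overlapped by LSD1+8a (2 of 5, against 12.3%) and by SVIL (2 of 5, against 4.24%). These shares rest on a pair of sites that were known from earlier results, and nothing is read from their distance to the background.

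Of the 7 SVIL peaks in the window, 6 overlapped a day 3 LSD1 peak (85.7%, 42.1 to 99.6), against 58.7% of all SVIL peaks. The same 6 overlapped a day 0 control peak, against 50.8% of the list, and 4 overlapped an LSD1+8a peak, against 18.6%. None of the 7 overlapped a knockdown peak (0 to 41.0%), against 33.1% of the list. The 6 peaks all lay in the inner pair of regions and are not independent, which these intervals do not take into account. The seventh SVIL peak, at 22978713 to 22979016, lay 25.3 kb to the left of the pair. It had 17 tags and a fold of 12.3, below the list's median of 18.2, and no overlap in any other list.

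LSD1 tags of day 3 were also set against the SVIL and the LSD1+8a tags of the same regions. The log2 ratio of LSD1 to SVIL tags, centred on the median of the 825 regions with peaks of both, was -1.26 (-1.65 to -0.86) in the larger and -1.74 (-2.32 to -1.16) in the smaller region, where 8.85% and 3.52% of such regions were lower. For LSD1 against LSD1+8a, over 2008 regions, it was 1.21 (0.70 to 1.75) and 0.49 (-0.19 to 1.22). The middle 90% of regions spanned -1.58 to 1.26 in the first comparison and -1.35 to 1.39 in the second, so of these 4 values only that of the smaller region against SVIL lay outside. LSD1, SVIL and LSD1+8a peaks covered 2925, 1122 and 1056 bp of the larger region and 1244, 561 and 877 bp of the smaller. These ratios are of summed tags and were not scaled by length, so unequal lengths enter them.

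The outer regions were found at day 0 or in SVIL alone. The region at 22858053 to 22858799 was the first peak of the window and held 25 tags at a fold of 19.1 in control cells at day 0 and no peak in another list. A fold of this size was in the upper 5.03% of its list, and its tags were just below the median of 26. The region from 22925757 and the last one, to 23104552, were the flanking ones shared by control and knockdown cells, with tags near or above the medians of their lists, 26 in control and 28 in knockdown cells. Their control peaks, with 37 and 44 tags, were in the upper 26.8% and 17.9% of the list by tags, and their knockdown peaks, with 26 and 49 tags, in the upper 54.7% and 16.5%. The second had the higher score in knockdown cells, 299, than in control cells, 142, while the first had 104 and 206. The region nearest to the pair was the SVIL peak described above.

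The sets of lists at the outer regions were found more often in the series than that of the pair. Any set with LSD1+8a or SVIL is limited by the 3378 and 1452 peaks of these lists. A day 0 control peak alone made up 4788 of the 32188 regions (14.9%), control and knockdown at day 0 together 2774 (8.62%) and SVIL alone 434 (1.35%). The set of the pair, all 4 control lists without the knockdown list, was found at 45 regions (0.140%), 2 of which are the pair. Among the other 43, day 0 LSD1 tags had a median of 41 and reached at most 97, and the median fold was 8.72. Day 3 LSD1 tags had a median of 129, LSD1+8a of 52 and SVIL of 24. Relative to the median of all shared regions, the log2 ratio of day 3 to day 0 LSD1 tags at these 43 had a median of 0.57 and ran from -1.36 to 1.70, with 8 below and 35 above 0, whereas the pair stood at -4.70 and -4.65.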

How the data were processed

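SH-SY5Y chromatin was fixed in 1% formaldehyde for 10 minutes and read in single-end reads of 50 bp, per the labels' protocols. The tools named are CASAVA and Bowtie (1.0.0) and the builds mm9 and hg19, per the submitters' processing notes. The lists are of human chromosomes and were read as hg19. The sources used here do not give the peak caller, threshold, input or duplicate removal. Peaks were called per library. The deposited tags are raw counts per peak. The deposited fold enrichment is a ratio by the authors' caller with no stated reference, and the deposited score has lost its name in the file headers and was used only for ranks and thresholds. Folds and scores are the authors' values.

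Positions are 1-based as deposited. Summits are the start plus the deposited offset. Overlap means at least 1 bp. Regions are merged overlapping peaks of all lists. Tag ratios are log2 of summed tags per region minus the median of all regions shared by that pair of lists, and the ratios to LSD1 at day 0 share that library. Exact 95% intervals cover counting error only, and reads from PCR are not independent molecules. Members and lists were chosen with earlier results of these data known. Named peaks are the 3 with most tags per list, the first and last of each list, all peaks of regions in at least 3 lists, and the 5 regions elsewhere with the same set of lists and the highest day 0 score. Other peaks named outside the window were chosen after their values were seen. So were the counts of peaks overlapped by 1 day 0 peak, the tiles, the flanks and the ratio between the inner regions. Python 3.11.15, pandas 2.3.3, NumPy 2.4.6, SciPy 1.17.1 and Matplotlib 3.10.9 were used. The functions for overlap and merging were tested on simulated data. For the ratios the formula was tested in this way, but not the function that computed them. Sequences of chromosome 8 are not reported here.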

Additional observations from a re-analysis of the deposited data

How the results depend on the processing

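No paired analysis was possible because each group has a single library. Of 66 alternative values, 53 stayed within the counting interval or within 1.5 times the count, and 13 moved. The ratios of knockdown to control tags and the overlaps of day 0 control peaks with knockdown peaks (2 of 5) and of day 3 peaks with knockdown peaks (0) were among the unmoved under every alternative run for them. For the day 3 peaks no alternative could add an overlap, since the nearest knockdown peaks lay 77.5 and 90.8 kb from the pair. For the day 0 peaks a count of 1 of 5 would also have counted as unmoved. Merging peaks of a list within 1 kb left 2 LSD1 peaks at day 3 and 3 SVIL peaks in the window. The upper 50% of each list by score left 1 LSD1+8a peak and 3 SVIL peaks, and 20 regions with the set of lists of the pair. A reciprocal overlap of 50% left 1 day 3 LSD1 peak overlapped by day 0 control peaks, and no day 0 control (0) or day 3 LSD1 peak (0) overlapped by SVIL, whose peaks are much shorter. The strongest day 0 peak ranked 2 by tags and 6 by tags per kb. With tags per kb, the day 3 to day 0 values were -3.97 in the larger and -3.77 in the smaller region, and with the largest peak in place of the sum the larger region gave -5.65. Alternatives were also a window widened by 50 kb on each side, peaks wholly inside it, a fold at least 1.5 times the lowest, and edges at most 1 kb apart. The unknown read depth limits every comparison of lists, and a missing peak cannot be told apart from signal below the threshold.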

Other observations

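The 5 regions outside the cluster with the set of lists of the inner pair and the highest day 0 LSD1 scores lay on chromosomes 10, 1, 8, 1 and 11. The first, on chromosome 10 (29781796 to 29782731), had 57 LSD1 tags at day 0 and 76 at day 3 in control cells, 22 LSD1+8a tags and 62 SVIL tags, with a SVIL fold of 115 that is the highest of its list. The second, on chromosome 1 (216768870 to 216771294), had 69 and 216 LSD1 tags, 52 LSD1+8a tags and 63 SVIL tags over 2 SVIL peaks. The third, on chromosome 8 (101521771 to 101524017), had 97 and 284 LSD1 tags, 58 LSD1+8a tags and 21 SVIL tags. The fourth, on chromosome 1 (50568647 to 50569982), had 36 and 187 LSD1 tags, and the fifth, on chromosome 11 (72031908 to 72033367), 50 and 113. Relative to the median log2 ratio of day 3 to day 0 LSD1 tags over all shared regions, the 5 stood at -0.73, 0.50, 0.40, 1.23 and 0.03, a scale chosen after seeing the data.

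The number of peaks in the window was set beside that in stretches of the same width. Of 11710 fixed tiles of 260 kb over all chromosomes, 4 (0.0342%) held at least 7 SVIL peaks, and the fullest held 9. With SVIL peaks within 1 kb merged, chosen after seeing the data, the window held 3, and 32 tiles (0.273%) held at least 3. For LSD1 in control cells, 808 tiles (6.90%) held at least 5 day 0 peaks and 2032 (17.4%) at least 4 day 3 peaks. For LSD1 in knockdown cells, 2516 tiles (21.5%) held at least 2 peaks, and for LSD1+8a 610 (5.21%). The window was placed on its peaks and the tiles were not, so these shares only describe how full such a stretch usually is.

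Peaks were also counted in the stretches beside the window. Within 500 kb on the left of the window, control cells had 4 LSD1 peaks at day 0 and 3 at day 3, knockdown cells had 2, LSD1+8a had 1 and SVIL had 0. On the right the counts were 2, 6, 1, 2 and 0. The means over all tiles, scaled to 500 kb, were 2.77, 3.41, 1.68, 0.555 and 0.238 peaks in the same order. The highest number of tags of a day 0 control peak in these stretches was 68 on the left and 39 on the right, so the tags of the inner pair have no counterpart among the neighbouring peaks of the same library.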
